A study of Mus musculus with 22 samples.

Results

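The 9 genes described here, across mouse primordial germ cell (PGC) libraries, are 5 gonadal ridge transcription factor genes, Nr5a1, Gata4, Wt1, Lhx9 and Emx2, and 4 steroidogenic genes, Star, Cyp11a1, Cyp17a1 and Scarb1. They were listed by symbol, with earlier results of these data known. All 9 were found among the 37991 genes counted for the Tet1 cross and the 37620 genes counted for the MF1 cross. The data are RNA-seq read counts from 22 libraries. All 9 genes passed the filter on low counts in the Tet1 cross and 7 of 9 passed it in the comparison of the MF1 cross, where Cyp11a1 and Cyp17a1 did not.

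Of these libraries, 20 came from matings between Tet1 heterozygous mice that carried the GOF18∆PE-EGFP reporter, which drives green fluorescent protein from the distal enhancer of Pou5f1 and was the basis of the sort. Their 10 groups of 2 libraries were Tet1-KO and Tet1-WT cells at E10.5 (E for embryonic day), with no sex given, and Tet1-KO and Tet1-WT cells of each sex at E12.5 and E14.5. Each of these libraries pooled RNA of 2 to 6 embryos of the same kind, from 1000 to 8000 sorted cells. The other 2 libraries were wild-type E10.5 PGCs from MF1 females mated with GOF18∆PE-EGFP males, made from 600 to 1000 sorted cells with a different RNA kit. Tet1 encodes an enzyme that oxidises 5-methylcytosine in DNA, and the study compared PGCs with and without it.

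The gonadal ridge is the thickening of coelomic epithelium and underlying mesenchyme next to the mesonephros that PGCs enter in mid-gestation. Its somatic cells need NR5A1, GATA4, WT1, LHX9 and EMX2 to form a gonad, and these factors are markers of somatic cells rather than of PGCs. The steroidogenic genes act in order: SCARB1 takes up cholesterol from lipoproteins, STAR moves cholesterol into mitochondria, CYP11A1 converts it to pregnenolone, and CYP17A1 leads on to androgens. In the fetal testis, CYP11A1 and CYP17A1 mark fetal Leydig cells, and NR5A1 and GATA4 are activators of several of these genes.

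Promoter sequence is shown for 1 gene of each class, because the promoter table held a window for these genes that lies before the annotated exons. RefSeq sequence of the mouse build GRCm38.p6 was read for 250 bases before the gene's start, stopping at the first annotated exon base, so that Lhx9, on the minus strand, has 237 bases at chr1:138842458-138842694 and Cyp11a1, on the plus strand, has 250 bases at chr9:57997774-57998023. A second listed start of Cyp11a1 lies within an annotated exon and is not shown. Capitals mark the only match to a searched motif, TGATAA on the opposite strand, 59 bases before the start of Lhx9.
Lhx9: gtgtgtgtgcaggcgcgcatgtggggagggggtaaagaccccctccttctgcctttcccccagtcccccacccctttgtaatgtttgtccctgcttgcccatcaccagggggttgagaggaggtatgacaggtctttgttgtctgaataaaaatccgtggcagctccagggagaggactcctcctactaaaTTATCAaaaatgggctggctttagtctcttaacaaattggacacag
Cyp11a1: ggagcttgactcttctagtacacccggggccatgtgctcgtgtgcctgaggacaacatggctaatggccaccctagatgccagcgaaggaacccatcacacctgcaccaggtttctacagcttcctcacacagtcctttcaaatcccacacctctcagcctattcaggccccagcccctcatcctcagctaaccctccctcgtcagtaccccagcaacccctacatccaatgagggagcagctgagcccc
The motifs, searched on both strands, were the NR5A1 half-site AAGGTCA, the GATA motifs TGATAA and AGATAA, and the homeodomain motif TAATTA, and the match in the Lhx9 window overlaps none of the others. Over 32851 mouse promoter windows, searched in the 250 bases before the start, 4.08% held AAGGTCA, 7.94% held TGATAA, 9.99% held AGATAA and 4.84% held TAATTA. The Cyp11a1 window held none of the 4 motifs, which says only that these letters are not in these 250 bases.

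Total counts were 9616436 to 25899505 in the libraries of the Tet1 cross and 59415040 and 66924911 in the MF1 libraries. Levels are in CPM, counts brought to a common library total, after TMM scaling of the totals, which assumes that most genes do not change. With 2 libraries per group, a mean ± SD always has n = 2, and p-values measure only the spread between these pools of embryos. Where a library is left out below, the other library of its group is assumed to vary like the libraries of the other groups. A count of 3, used as the limit that a count of 0 allows, was 0.1199 to 0.318 CPM depending on the library of the Tet1 cross. Such limits cover counting error only, since amplified reads are not independent molecules. In bulk samples, fewer cells of a type and less RNA per cell cannot be told apart.

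Tet1 itself was measured at 44.5 and 102 CPM in the E10.5 libraries labelled Tet1-KO, against 134 and 76.8 CPM in E10.5 Tet1-WT, so the second library labelled Tet1-KO lay above the second Tet1-WT library. At E12.5 and E14.5 every Tet1-KO library lay below both Tet1-WT libraries of its stage and sex. Pou5f1, a germ cell gene, was present in every library, at 27.7 to 297.6 CPM in the Tet1 cross. Summed over 15 mesenchyme markers, E10.5 libraries held 478 and 898 CPM where labelled Tet1-KO and 1674 and 1996 CPM in Tet1-WT. The sum was 77.4 and 87.8 CPM in E12.5 Tet1-KO females, against 870 and 1226 CPM in E12.5 Tet1-WT females. It was 288 and 207 CPM in E12.5 Tet1-KO males, against 1990 and 1328 CPM in E12.5 Tet1-WT males. At E14.5 it was 39.4 to 90.7 CPM over all 8 libraries. Sorted Tet1-WT cells at E10.5 and E12.5 therefore carried more mesenchyme RNA than the matched Tet1-KO cells, and these sums are set beside the results they move with.

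Among the 9 genes Scarb1 had the highest level per exon length, a mean of 7.29 CPM per kb over the 20 libraries of the Tet1 cross. Wt1 followed at 2.71 CPM per kb. Emx2, Gata4, Nr5a1, Lhx9 and Star lay between 0.711 and 0.968 CPM per kb, and Cyp17a1 and Cyp11a1 were lowest at 0.363 and 0.238 CPM per kb. Star and Scarb1 had at least 1 count in all 20 libraries, Wt1 in 19, Nr5a1, Gata4 and Lhx9 in 17, Emx2 in 14, Cyp11a1 in 11 and Cyp17a1 in 9.

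Wt1 encodes a zinc finger factor of the coelomic epithelium, the gonad and the kidney, and was the most abundant of the transcription factor genes. At E10.5 it had 12 and 49.4 CPM in libraries labelled Tet1-KO, against 64.3 and 45.5 CPM in Tet1-WT, and these ranges overlapped. At E12.5 it had 1.70 and 1.41 CPM in female Tet1-KO cells, against 16.5 and 41.5 CPM in female Tet1-WT cells. In E12.5 males it had 5.81 and 6.67 CPM in Tet1-KO cells, against 54.6 and 21.2 CPM in Tet1-WT cells. All 4 E12.5 Tet1-KO libraries were thus below all 4 E12.5 Tet1-WT libraries. At E14.5 Wt1 was at 0 and 3.55 CPM in female Tet1-KO cells, against 0.856 and 0.318 CPM in female Tet1-WT cells. E14.5 males were close together, at 2.52 and 2.55 CPM in Tet1-KO cells, against 2.38 and 2.48 CPM in Tet1-WT cells. In the order of group means, the 4 highest groups (E10.5 Tet1-WT, E12.5 male Tet1-WT, E10.5 Tet1-KO and E12.5 female Tet1-WT) each overlapped the next in that order, and a gap separated E12.5 female Tet1-WT (29.0 ± 17.7 CPM) from E12.5 male Tet1-KO (6.24 ± 0.610 CPM).

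Lhx9 encodes a LIM homeodomain factor without which the mouse gonad does not form. It had 0.548 and 9.09 CPM in the E10.5 libraries labelled Tet1-KO, against 47.8 and 30.1 CPM in E10.5 Tet1-WT. In E12.5 females it had 1.12 and 0.775 CPM in Tet1-KO cells, against 9.96 and 3.52 CPM in Tet1-WT cells. E12.5 males had 1.77 and 2.67 CPM in Tet1-KO cells, against 24.3 and 11.6 CPM in Tet1-WT cells. Tet1-KO lay below Tet1-WT without overlap at each of these stages. At E14.5 no library exceeded 1.28 CPM: females had 0.593 and 0 CPM in Tet1-KO cells, against 0 and 0.106 CPM in Tet1-WT cells, and males had 0.0645 and 0.607 CPM in Tet1-KO cells, against 0 and 1.28 CPM in Tet1-WT cells. E10.5 Tet1-WT (39.0 ± 12.48 CPM) and E12.5 male Tet1-WT (17.9 ± 8.95 CPM) each stood apart from the next group in the order of means.

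Emx2 encodes a homeodomain factor of the urogenital epithelium. At E10.5 it had 0.686 and 7.998 CPM in libraries labelled Tet1-KO, against 15.6 and 21.2 CPM in Tet1-WT. In E12.5 females it had 0.166 and 0.493 CPM in Tet1-KO cells, against 2.00 and 5.00 CPM in Tet1-WT cells. E12.5 males had 0.673 and 0.534 CPM in Tet1-KO cells, against 1.51 and 1.63 CPM in Tet1-WT cells. As for Lhx9, both E10.5 Tet1-WT libraries lay above every other library of the Tet1 cross, and the E14.5 libraries were at or near 0. Both E14.5 female Tet1-KO libraries and both E14.5 male Tet1-WT libraries had 0 counts, E14.5 male Tet1-KO cells had 0 and 0.364 CPM, and E14.5 female Tet1-WT cells had 0 and 0.212 CPM. Emx2 and its antisense transcript Emx2os share 264 of the 3002 exonic bases of Emx2, and the strand setting of the counting is not stated, so reads of that stretch cannot be told apart. Emx2os had 5.48 and 4.38 CPM in the E10.5 libraries labelled Tet1-KO, against 16.7 and 36.4 CPM in E10.5 Tet1-WT. Wt1os, named for its place beside Wt1, had 0 and 2.52 CPM in the E10.5 libraries labelled Tet1-KO, against 2.99 and 3.89 CPM in E10.5 Tet1-WT.

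Nr5a1 encodes steroidogenic factor 1, a nuclear receptor required for gonads and adrenal glands. It had 0 and 2.52 CPM in the E10.5 libraries labelled Tet1-KO, against 8.70 and 8.27 CPM in E10.5 Tet1-WT. In E12.5 females it had 1.08 and 0.282 CPM in Tet1-KO cells, against 2.47 and 3.79 CPM in Tet1-WT cells. In E12.5 males it had 2.69 and 0.734 CPM in Tet1-KO cells, against 7.44 and 11.7 CPM in Tet1-WT cells. The genotypes did not overlap in any of these 3 comparisons. At E14.5 the sexes stood apart. E14.5 males had 8.58 and 4.07 CPM in Tet1-KO cells, against 4.46 and 1.12 CPM in Tet1-WT cells, while E14.5 females had 0.0659 and 0 CPM in Tet1-KO cells, against 0.503 and 0 CPM in Tet1-WT cells. The 3 highest group means were E12.5 male Tet1-WT (9.58 ± 3.03 CPM), E10.5 Tet1-WT (8.48 ± 0.307 CPM) and E14.5 male Tet1-KO (6.32 ± 3.19 CPM). These 3 overlapped in that order, and the third stood apart from the fourth, E12.5 female Tet1-WT (3.13 ± 0.927 CPM).

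Gata4 encodes a zinc finger factor that acts early in the formation of the gonadal ridge. It had 0.0686 and 3.12 CPM in the E10.5 libraries labelled Tet1-KO, against 14.3 and 7.83 CPM in E10.5 Tet1-WT. In E12.5 females it had 0.0414 and 0.634 CPM in Tet1-KO cells, against 6.72 and 8.36 CPM in Tet1-WT cells. E12.5 males had 2.10 and 0.867 CPM in Tet1-KO cells, against 6.23 and 4.20 CPM in Tet1-WT cells. Gata4 shared with Nr5a1 the non-overlap of genotypes in these 3 comparisons and the higher level in E14.5 males. E14.5 males had 2.26 and 2.37 CPM in Tet1-KO cells, against 1.96 and 2.04 CPM in Tet1-WT cells. Both E14.5 female Tet1-KO libraries had 0 counts, and E14.5 female Tet1-WT cells had 0.654 and 0 CPM.

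**Figure D1:**
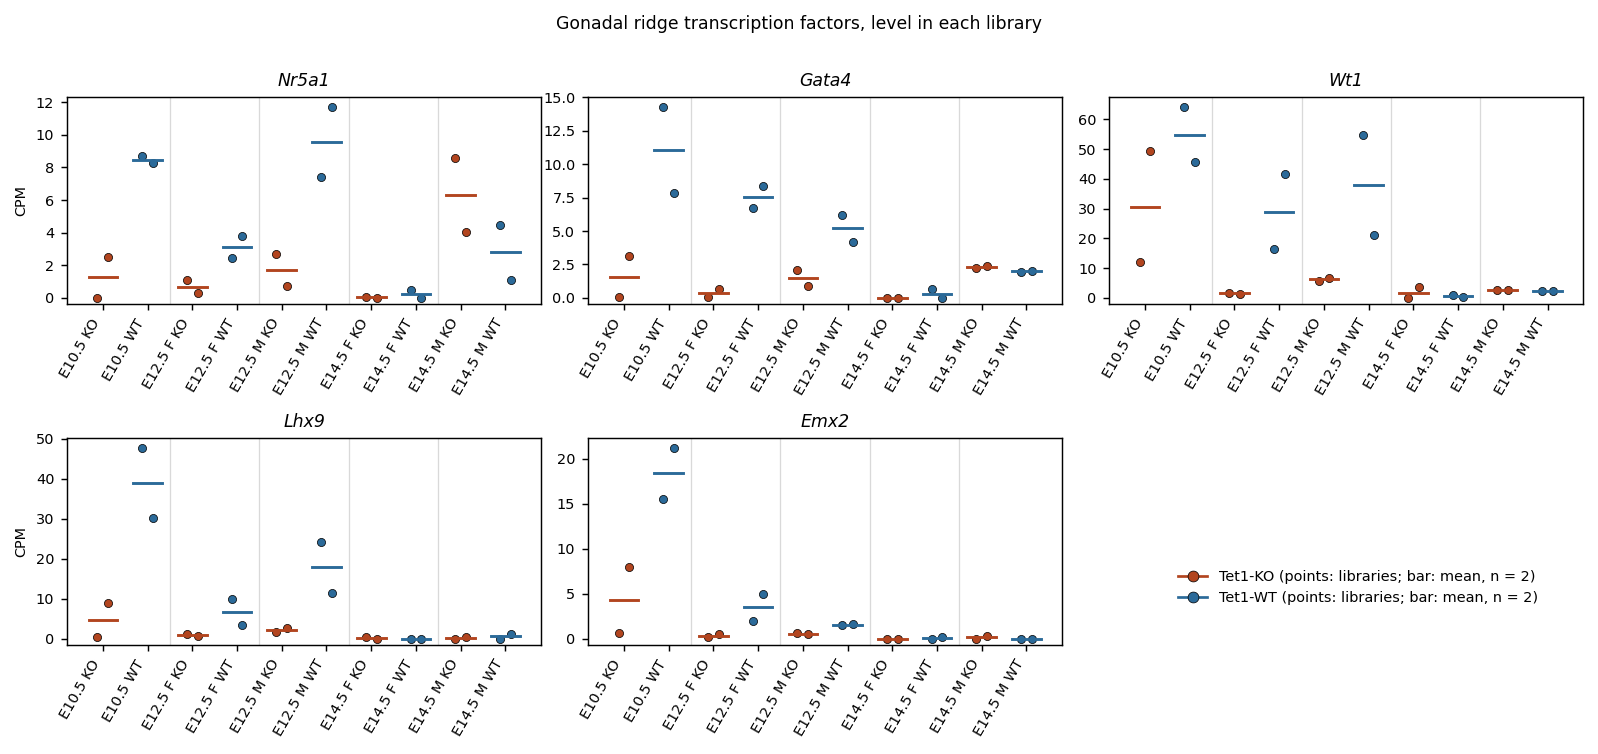
Level of each transcription factor gene in CPM (linear axis from 0) in the 10 groups of the Tet1 cross, with Tet1-KO left of Tet1-WT at each stage and sex. Each point is 1 library and each bar the group mean. Lhx9 in E10.5 Tet1-WT, at 47.8 and 30.1 CPM, stands above its other groups, and Nr5a1 and Gata4 are higher in E14.5 males than in E14.5 females.

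At E10.5, 4 of the 5 transcription factor genes had every library labelled Tet1-KO below every Tet1-WT library, and Wt1 did not. None of the 5 passed edgeR's test or DESeq2, and 1 had an unadjusted p under 0.05, as did 4460 of 17567 genes. edgeR called 8.81% of the 17567 genes tested in this comparison and 4.7% as lower in Tet1-KO. Libraries lay lower without overlap for 25.1% of all genes. Lhx9 had a log2 ratio of -3.01 (SE 1.34, adjusted p 0.175), Gata4 of -2.78 (SE 1.34, adjusted p 0.212), Nr5a1 of -2.73 (SE 1.39, adjusted p 0.233), Emx2 of -2.08 (SE 1.26, adjusted p 0.323) and Wt1 of -0.84 (SE 0.88, adjusted p 0.605). Their median was -2.73, beside 0.00 for all genes tested. Without Tet1-KO replicate 2, which leaves 1 library in that group, Nr5a1 (adjusted p 0.0181), Gata4 (adjusted p 0.0280) and Lhx9 (adjusted p 0.0433) passed the test. With no filter on low counts Lhx9 passed as well (adjusted p 0.00103), where 2578 of 26023 genes were called, against 1547 of 17567 with the filter. Of the 15 mesenchyme genes, 1 was called lower in Tet1-KO (Nr2f2) and 8 had an unadjusted p under 0.05, with a median log2 ratio of -1.35, and 8 of 12 germ cell genes rose. The germ cell sum was 6077 and 3952 CPM in libraries labelled Tet1-KO, against 1771 and 1449 CPM in Tet1-WT. The part of these marker differences in the result was not tested.

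At E12.5 all 5 factors lay lower in Tet1-KO than in Tet1-WT without overlap, in females and in males, where 24.5% and 26.6% of all genes did so. By edgeR's test none of the 9 genes was called in either sex, with 1.29% of all genes called in females and 1.06% in males. At an unadjusted p under 0.05 there were 3 of 9 in each sex, beside 2270 of 17567 genes in females and 2562 in males. DESeq2 called 2 in females, where it called 4.47% of all genes, and 0 in males. Among the factors, the log2 ratio of Wt1 was -4.21 in females (SE 1.03, adjusted p 0.0603) and -2.60 in males (SE 0.94, adjusted p 0.218), and that of Gata4 in females was -4.54 (SE 1.501, adjusted p 0.191). Wt1 in females passed with DESeq2 (adjusted p 0.000514), without E12.5 female Tet1-WT replicate 1 (adjusted p 0.0294) and with only the 4 compared libraries fitted (adjusted p 0.00576). With no filter on low counts, Wt1 (adjusted p 3.5e-13), Gata4 (0.00373) and Lhx9 (0.00690) passed in females, and Wt1 (9.8e-06) and Lhx9 (0.00294) in males. That setting called many more genes, 943 of 26023 in females and 901 in males, against 227 and 186 of 17567 with the filter. The median log2 ratio of the 5 factors was -3.43 in females, beside -0.02 for all genes, and -2.49 in males, beside 0.00. Of the 15 mesenchyme genes, 8 fell in Tet1-KO females and 7 in Tet1-KO males, with the sums given above, and their part in the result was not tested. The difference between the Tet1-KO effects of the sexes was called for none of the 9 genes by edgeR or DESeq2, with 0 of 9 at an unadjusted p under 0.05; edgeR called 0% of all genes, 1007 of which had an unadjusted p under 0.05.

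At E14.5 the genotypes overlapped for 3 of the 5 factors in males, and Gata4 and Wt1 were slightly higher in Tet1-KO without overlap, as were 24.9% of all genes. Gata4 had a log2 ratio of 0.21 (adjusted p 1.0) and Wt1 of 0.06 (adjusted p 1.0) there. Nr5a1, higher on average in male Tet1-KO cells, had a log2 ratio of 1.19 (adjusted p 0.847). edgeR called none of the 9 genes in males, nor did DESeq2, and edgeR called 0.102% of all genes. None of the 9 had an unadjusted p under 0.05 there, beside 1815 of 17567 genes. In females edgeR called none of 9 and 6.65% of all genes. An unadjusted p under 0.05 was found for 2 of 9, beside 3692 of 17567 genes. DESeq2 called 1 of 9 and 12.3% of all genes there. The difference between the effects of the sexes at E14.5 was called for none of the 9 by edgeR or DESeq2, and edgeR called 1.43% of all genes. An unadjusted p under 0.05 was found for 2 of the 9, beside 2711 of 17567 genes.

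**Figure D2:**
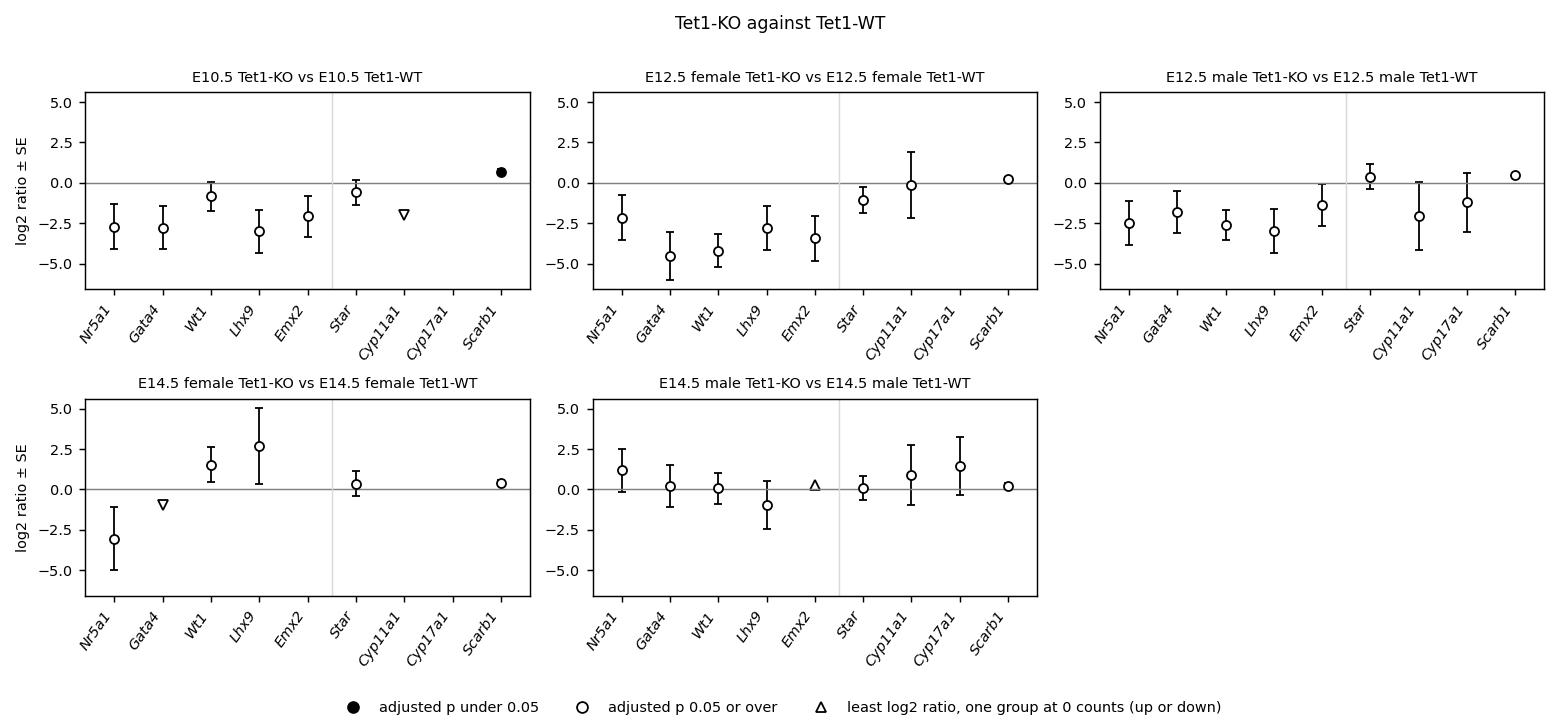
Log2 ratio of Tet1-KO to Tet1-WT for the 9 genes in the 5 stage and sex comparisons, with bars for the SE, filled points for an adjusted p under 0.05 and triangles for least ratios where 1 group had 0 counts. The only filled point is Scarb1 at E10.5, at 0.70, and the transcription factor genes lie below 0 at E10.5 and E12.5.

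Stages were compared in Tet1-WT cells. In E12.5 against E10.5 cells edgeR called none of the 5 factors in either sex, with 0 of 5 in females and 1 of 5 in males at an unadjusted p under 0.05. Of 17567 genes, 4830 in females and 4063 in males had such a p. The largest differences in the fits were for Emx2 in males (log2 ratio -3.54, adjusted p 0.125), Lhx9 in females (-2.53, adjusted p 0.228) and Emx2 in females (-2.39, adjusted p 0.248). Of all genes, 13.6% were called in females (8.81% higher) and 9.45% in males. In males edgeR called none of the 9 genes, 2 had an unadjusted p under 0.05, and DESeq2 called 2 of 9 and 14.6% of all genes. The median log2 ratio of the 5 factors was -1.44 in females, beside 0.03 for all genes, and -1.08 in males, beside 0.02.

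In E14.5 against E12.5 Tet1-WT cells most of the factors fell in both sexes. In females 4 of 5 fell, where edgeR called 25.3% of all genes and 14% as lower. The log2 ratio was -5.49 for Wt1 (SE 1.14, adjusted p 0.00209), -7.27 for Lhx9 (SE 2.03, adjusted p 0.0147), -5.30 for Emx2 (SE 1.65, adjusted p 0.0302) and -4.34 for Gata4 (SE 1.48, adjusted p 0.0434). The E14.5 libraries together held 1 count of Lhx9 and 2 of Emx2, under the limit of 3 counts, so the sizes of these 2 ratios are uncertain. Nr5a1 had a log2 ratio of -3.42 (adjusted p 0.114) and passed with DESeq2 (adjusted p 0.0399), which called 30.9% of all genes. The Wt1 call held under every alternative tried. The Lhx9 call was lost without E12.5 female Tet1-WT replicate 1 (adjusted p 0.0509) and without E14.5 female Tet1-WT replicate 1 (0.151) or replicate 2 (0.0501). The Emx2 call was lost without E12.5 replicate 2 (adjusted p 0.119) and E14.5 replicate 1 (0.219). The Gata4 call was lost without E12.5 replicate 1 (adjusted p 0.0712) or replicate 2 (0.108) and E14.5 replicate 2 (0.200).

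In males 3 of 5 factors fell in E14.5 against E12.5 Tet1-WT cells, where 12.7% of all genes were called and 7.75% as lower. The log2 ratio was -3.96 for Wt1 (SE 1.01, adjusted p 0.0179) and -4.73 for Lhx9 (SE 1.48, adjusted p 0.0476). Emx2, with 0 counts in both E14.5 male Tet1-WT libraries, was at least 10.54-fold lower when 3 counts per library are put in place of 0 (adjusted p 0.0266). Each of these calls was lost when 1 library or another was left out, which leaves 1 library in that group. Without E12.5 male Tet1-WT replicate 1 the adjusted p was 0.133 for Wt1 and 0.193 for Lhx9, and without E14.5 male Tet1-WT replicate 1 it was 0.0804 for Wt1 and 0.166 for Lhx9. Without E12.5 replicate 2 it was 0.0737 for Lhx9, and without E14.5 replicate 2 it was 0.122 for Wt1. The Emx2 call was lost without any of the 4 libraries, at adjusted p values between 0.0604 and 0.164. The median log2 ratio of the 5 factors was -3.96, or -3.40 with Emx2 at its bound, beside 0.00 for all genes. In females it was -5.30, beside -0.07.

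Mesenchyme RNA fell in the same comparisons. In E14.5 against E12.5 wild-type cells, 12 of 15 mesenchyme genes fell in each sex, and their sum was 64.2 and 66.9 CPM in E14.5 females, against 870 and 1226 CPM in E12.5 females, and 74.7 and 82.4 CPM in E14.5 males, against 1990 and 1328 CPM in E12.5 males. The antisense transcript Emx2os fell in males (log2 ratio -5.87, adjusted p 0.018). In E14.5 Tet1-WT females Wt1os had 0 counts in both libraries, against 3.48 and 5.36 CPM in E12.5 female Tet1-WT (adjusted p 0.0354). The summed factors reached 151 and 113 CPM in E10.5 Tet1-WT cells, the group with the highest mean of mesenchyme RNA, and lay between 0.636 and 13.4 CPM in the E14.5 libraries. The sum of 7 coelomic and surface epithelium genes also fell with stage in Tet1-WT cells. It was 18.3 and 29.9 CPM in E14.5 females, against 107 and 87.0 CPM in E12.5 females. In males it was 39.8 and 33.4 CPM at E14.5, against 188 and 136 CPM at E12.5. The sum of 6 mesonephric tubule and duct genes rose in males, to 99.05 and 75.8 CPM from 55.7 and 59.9 CPM, and fell in females. The part of mesenchyme or epithelium RNA in the factor results was not tested.

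**Figure D3:**
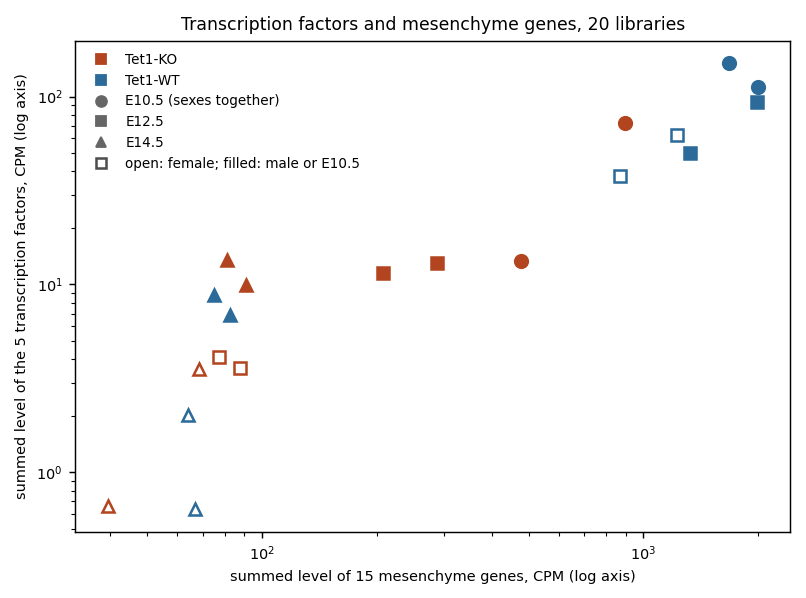
Summed level of the 5 transcription factor genes against the summed level of 15 mesenchyme genes, both in CPM on log axes, with 1 point per library of the Tet1 cross. Tet1-WT libraries of E10.5 and E12.5 lie at the upper right, between 37.7 and 151 CPM of summed factors, and E14.5 libraries at the lower left.

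Sex differences of the factors were found at E14.5. In Tet1-KO cells, males had more Nr5a1 (log2 ratio 7.48, SE 1.94, adjusted p 0.0137) and at least 13.9-fold more Gata4 than females, whose libraries had 0 counts of Gata4 (adjusted p 0.0167). The female libraries together held 1 count of Nr5a1, under the limit of 3 counts, so the size of its ratio is uncertain. edgeR called 19% of all genes in this comparison and 11.6% as higher in males. Without female Tet1-KO library a the adjusted p was 0.0522 for Nr5a1 and 0.0767 for Gata4, and without library b it was 0.101 for Nr5a1 and 0.0936 for Gata4. Wt1 was not called there (adjusted p 0.805) but passed without female Tet1-KO library b (adjusted p 0.0123), the 1 library of that group with Wt1 counts. In Tet1-WT cells the E14.5 log2 ratios of males to females were 3.24 for Nr5a1 (adjusted p 0.122) and 2.43 for Gata4 (adjusted p 0.214). edgeR called none of the 9 genes there and 28.1% of all genes. An unadjusted p under 0.05 was found for 2 of the 9, beside 6828 of 17567 genes. DESeq2 called 2 of 9 and 33.6% of all genes. At E12.5 none of the 9 was called between the sexes in either genotype. There edgeR called 0.398% of all genes in Tet1-KO cells and 0.575% in Tet1-WT cells. In each genotype 2 of 9 had an unadjusted p under 0.05, beside 1454 of 17567 genes in Tet1-KO cells and 2222 in Tet1-WT cells. DESeq2 called 0 in Tet1-KO cells and 1 in Tet1-WT cells, where it called 4.23% of all genes. The E12.5 log2 ratio of Nr5a1 in Tet1-WT males to females was 1.61 (adjusted p 0.698).

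Sertoli cell genes moved with Nr5a1 and Gata4 between the sexes at E14.5. The sum of 10 Sertoli genes was 48.2 and 32.1 CPM in E14.5 male Tet1-KO cells, against 8.90 and 3.96 CPM in E14.5 female Tet1-KO cells. It was 20.8 and 22.3 CPM in E14.5 male Tet1-WT cells, against 7.30 and 2.23 CPM in E14.5 female Tet1-WT cells. Of the 8 Sertoli genes tested, 5 were higher in Tet1-KO males and 4 in Tet1-WT males, where 11.6% and 14% of all genes were called higher. In E14.5 female Tet1-KO cells Sox9, Amh, Dhh, Ptgds, Cyp26b1, Sry and Hsd17b3 were at 0. Sry was at 0 in E14.5 males of both genotypes as well. The sum was highest in E10.5 Tet1-WT cells, at 50.8 and 55.8 CPM, although Amh, Dhh, Ptgds, Sry and Hsd17b3 were at 0 there. The part of Sertoli cell RNA in the sex difference was not tested.

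The MF1 cross gave another set of wild-type E10.5 PGCs, which were set against the E10.5 Tet1-WT cells in a fit of their own, with the 4 libraries scaled together. Lhx9 had 0 counts in both MF1 libraries, against 48.5 and 29.9 CPM in E10.5 Tet1-WT, which was at least 793-fold lower (adjusted p 0.0429), and this call held under every alternative tried. Nr5a1 had 0 and 0.171 CPM in MF1 cells, against 8.84 and 8.20 CPM in Tet1-WT cells. Emx2 had 0.140 and 0.0620 CPM in MF1 cells, against 15.8 and 21.1 CPM in Tet1-WT cells. Wt1 had 8.87 and 2.39 CPM in MF1 cells, against 65.3 and 45.2 CPM in Tet1-WT cells. Gata4 had 0 and 4.497 CPM in MF1 cells, against 14.52 and 7.77 CPM in Tet1-WT cells. All 5 factors were therefore lower in the MF1 libraries without overlap, as were 33.1% of all genes. Lhx9 was the only one of the 7 genes tested that edgeR called, with 0.606% of all genes called and 0.516% as lower, and the adjusted p was 0.0536 for Emx2, 0.121 for Wt1, 0.164 for Nr5a1 and 0.621 for Gata4. DESeq2 called 4 of 7 and 15.8% of all genes. Leaving out an MF1 library leaves that group with 1 library, so the spread comes from the Tet1-WT pair alone, and many more genes are called: 4651 of 15881 without MF1 replicate 2 and 4430 of 16259 without MF1 replicate 1. Without MF1 replicate 2 all 5 factors passed, and without MF1 replicate 1 Nr5a1 (adjusted p 0.00840), Wt1 (adjusted p 0.00142) and Emx2 (adjusted p 0.00139) passed beside Lhx9. Without E10.5 Tet1-WT replicate 2 Wt1 passed (adjusted p 0.0402). The mesenchyme sum was 129.5 and 85.02 CPM in MF1 cells, against 1701 and 1980 CPM in Tet1-WT cells, with Dcn at 0 in MF1. The germ cell sum was 5514 and 5986 CPM in MF1 cells, against 1799 and 1437 CPM in Tet1-WT cells. The cross, the RNA kit and the depth differ between these groups along with the group itself, and their effects cannot be told apart.

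Among the steroidogenic genes, Scarb1, the lipoprotein receptor for cholesterol uptake, was the 1 member found above 30 CPM in every library. It had 56.5 and 55.7 CPM in the E10.5 libraries labelled Tet1-KO, against 37.6 and 31.7 CPM in E10.5 Tet1-WT. In E12.5 females it had 80.2 and 89.9 CPM in Tet1-KO cells, against 76.2 and 70.9 CPM in Tet1-WT cells. In E12.5 males it had 64.5 and 67.8 CPM in Tet1-KO cells, against 43.7 and 51.3 CPM in Tet1-WT cells. Every Tet1-KO library was above every matched Tet1-WT library. At E14.5 Scarb1 had 75.2 and 79.0 CPM in female Tet1-KO cells, against 56.8 and 58.2 CPM in female Tet1-WT cells. In E14.5 males it had 65.1 and 67.3 CPM in Tet1-KO cells, against 54.7 and 57.9 CPM in Tet1-WT cells. Scarb1 thus lay higher in Tet1-KO without overlap in all 5 comparisons, as did 20.1% of all genes at E10.5, 22.8% for females and 26.7% for males at E12.5, and 21.6% for females and 24.9% for males at E14.5.

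Scarb1 rose in Tet1-KO at E10.5, with a log2 ratio of 0.70 (SE 0.16, adjusted p 0.0159), and was the 1 gene of 9 called in that comparison, where 4.1% of all genes were called higher. The call was lost without E10.5 Tet1-WT replicate 2 (adjusted p 0.145), with no filter on low counts (0.0859) and with only the 4 compared libraries fitted (0.276). Its log2 ratio of Tet1-KO to Tet1-WT was 0.21 for E12.5 females (adjusted p 0.653) and 0.48 for E12.5 males (SE 0.16, adjusted p 0.182). At E14.5 it was 0.42 for females (SE 0.16, adjusted p 0.137; DESeq2 0.0253) and 0.23 for males (adjusted p 0.673). In wild-type cells Scarb1 rose in E12.5 females against E10.5, with a log2 ratio of 1.09 (SE 0.16, adjusted p 0.000417), and this call held under every alternative tried. The log2 ratio of E12.5 males to E10.5 was 0.46 (adjusted p 0.0924), and that of E12.5 males to females in Tet1-WT was -0.63 (SE 0.16, adjusted p 0.0885; DESeq2 0.00127). The E10.5 germ cell sums given above, higher in Tet1-KO, run the same way as Scarb1. So did those of E12.5 males, where Tet1-KO libraries held 6915 to 6963 CPM and Tet1-WT libraries 5055 to 6101. Elsewhere the germ cell sum, though not the median gene of that list, was lower in Tet1-KO without overlap, opposite to Scarb1. Tet1-KO libraries held 6873 to 6940 CPM in E12.5 females, where Tet1-WT had 7062 to 7783. E14.5 females had 6022 to 6139 (Tet1-KO) and 7275 to 7904 (Tet1-WT). E14.5 males had 10910 to 11050 (Tet1-KO) and 11280 to 11650 (Tet1-WT). The median log2 ratio of the 12 germ cell genes was above 0 in the same comparisons. It was 0.19 for E12.5 females, 1.29 for E14.5 females and 0.08 for E14.5 males. In E14.5 females edgeR called 7 of the 12 higher in Tet1-KO and 1 lower, where 6.65% of all genes were called. For E12.5 females it called 1 of the 12, Pou5f1, as higher. None of the 12 was called for the E14.5 males. In E12.5 female Tet1-WT cells, the germ cell sum was 7062 and 7783 CPM, against 1771 and 1449 CPM in E10.5 Tet1-WT. The part of germ cell RNA in the Scarb1 results was not tested. In MF1 cells Scarb1 had 45.7 and 55.7 CPM, against 38.2 and 31.5 CPM in E10.5 Tet1-WT (log2 ratio 0.54, adjusted p 0.465).

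Star, the mitochondrial cholesterol carrier, was low and even across the groups, and no comparison called it. It had 4.11 and 1.37 CPM in the E10.5 libraries labelled Tet1-KO, against 3.56 and 4.65 CPM in E10.5 Tet1-WT. In E12.5 females it had 1.12 and 1.62 CPM in Tet1-KO cells, against 2.59 and 3.16 CPM in Tet1-WT cells. E12.5 males had 3.54 and 2.34 CPM in Tet1-KO cells, against 1.51 and 3.01 CPM in Tet1-WT cells. Only the E12.5 females had genotypes that did not overlap, with a log2 ratio of -1.07 (adjusted p 0.637). At E14.5 Star had 3.96 and 1.75 CPM in female Tet1-KO cells, against 2.42 and 2.01 CPM in female Tet1-WT cells. In E14.5 males it had 2.77 and 5.34 CPM in Tet1-KO cells, against 2.56 and 5.07 CPM in Tet1-WT cells. In the order of group means, each of the 9 highest groups but the last of them overlapped the next, and E12.5 female Tet1-KO cells were lowest. In MF1 cells Star had 3.04 and 5.58 CPM, against 3.62 and 4.61 CPM in E10.5 Tet1-WT (log2 ratio 0.07, adjusted p 0.984).

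Cyp11a1, the enzyme of the first step of steroid synthesis, exceeded 1.5 CPM in no library outside the E14.5 males. There it had 3.55 and 8.32 CPM in Tet1-KO cells, against 1.96 and 4.40 CPM in Tet1-WT cells. E14.5 females had 0 and 0 CPM in Tet1-KO cells, against 0.252 and 0 CPM in Tet1-WT cells. Levels in both genotypes were thus higher in E14.5 males than in E14.5 females without overlap, as were 33.5% of all genes in Tet1-KO and 31.7% in Tet1-WT cells. The libraries labelled Tet1-KO at E10.5 had 0 and 0 CPM, against 0 and 1.46 CPM in E10.5 Tet1-WT. E12.5 females had 0.497 and 0 CPM in Tet1-KO cells, against 0.589 and 0 CPM in Tet1-WT cells. E12.5 males had 0 and 0.334 CPM in Tet1-KO cells, against 1.03 and 0.439 CPM in Tet1-WT cells. The MF1 libraries had 0 and 0 CPM, against 0 and 1.45 CPM in E10.5 Tet1-WT.

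Cyp17a1, the enzyme that leads to androgens, had its highest levels in the same group. E14.5 males had 2.52 and 8.92 CPM in Tet1-KO cells, against 1.72 and 2.44 CPM in Tet1-WT cells. E14.5 females had 0.264 and 0 CPM in Tet1-KO cells, against 0 and 0 CPM in Tet1-WT cells. E12.5 males had 1.18 and 0 CPM in Tet1-KO cells, against 1.45 and 1.25 CPM in Tet1-WT cells. Cyp17a1 was at 0 in all 4 E12.5 female libraries and in both E10.5 libraries labelled Tet1-KO, and E10.5 Tet1-WT cells had 0.339 and 0 CPM. The MF1 libraries had 0 and 0 CPM, against 0.344 and 0 CPM in E10.5 Tet1-WT. A signal of Cyp17a1 above 1 CPM was therefore found in males of both later stages and in no female library.

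In E14.5 Tet1-KO cells Cyp11a1 was at least 35.7-fold higher in males than in females (adjusted p 0.042), and this call was lost without any 1 of the 4 libraries, at adjusted p values between 0.0699 and 0.164. Cyp17a1 had a log2 ratio of 5.45 there (adjusted p 0.106). In E14.5 Tet1-WT cells the log2 ratio of males to females was 4.40 for Cyp11a1 (adjusted p 0.163), and Cyp17a1 was at least 8.87-fold higher in males (adjusted p 0.056; DESeq2 0.039). In E12.5 Tet1-WT cells Cyp17a1 was at least 8.09-fold higher in males (adjusted p 0.269). Between Tet1-KO and Tet1-WT males at E14.5 the log2 ratio was 0.90 for Cyp11a1 (adjusted p 0.961) and 1.45 for Cyp17a1 (adjusted p 0.869).

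Marker genes of fetal Leydig and adrenal cortex cells were summed for the same E14.5 groups. The sum of 10 such genes was 33.8 and 25.7 CPM in male Tet1-KO cells, against 4.35 and 4.498 CPM in female Tet1-KO cells, and 10.8 and 12.4 CPM in male Tet1-WT cells, against 4.53 and 2.86 CPM in female Tet1-WT cells. Among the 7 genes tested, Hsd3b1 and Inha were higher in Tet1-KO males, where 11.6% of all genes were called higher. In Tet1-WT cells edgeR called 0 of 7, 0 had an unadjusted p under 0.05, and the median log2 ratio was 0.0. Of all genes, 28.1% were called there and 6828 of 17567 had an unadjusted p under 0.05. Outside E14.5 the sum was 25.1 and 33.1 CPM in E10.5 Tet1-WT cells and 28.2 and 23.2 CPM in E12.5 male Tet1-KO cells. In those 4 libraries Cyp11a1 and Cyp17a1 were lower than in E14.5 males. The MF1 libraries, with 0 counts of Cyp11a1 and Cyp17a1, had sums of 27.2 and 25.9 CPM when scaled with E10.5 Tet1-WT. The defining Leydig gene Insl3 was at 0 in every group. The part of these cells' RNA in the Cyp11a1 and Cyp17a1 results was not tested.

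**Figure D4:**
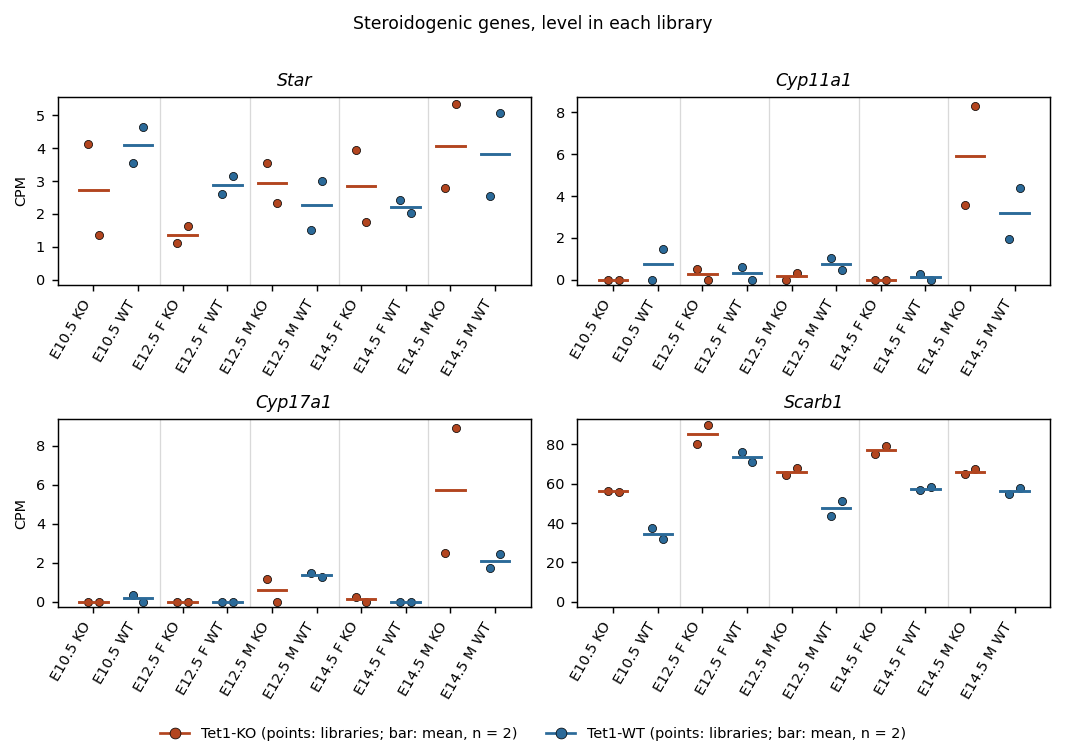
Level of each steroidogenic gene in CPM (linear axis from 0) in the 10 groups of the Tet1 cross, with Tet1-KO left of Tet1-WT at each stage and sex. Each point is 1 library and each bar the group mean. Scarb1 is at 31.7 to 89.9 CPM in every group, while Cyp11a1 and Cyp17a1 are highest in E14.5 males.

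**Figure D5:**
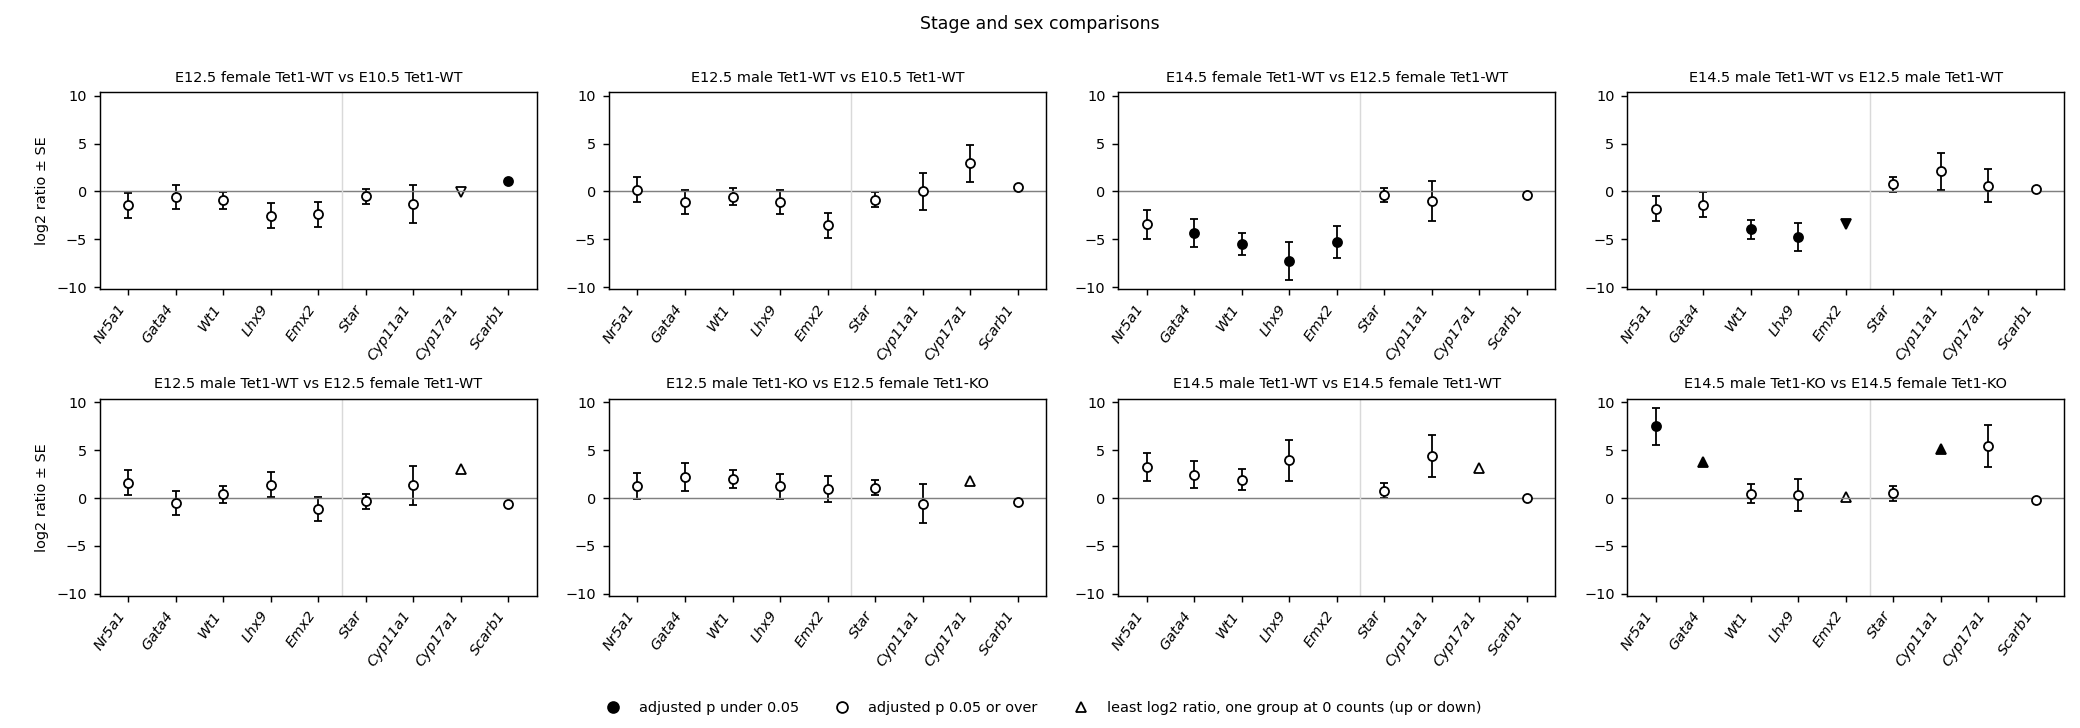
Log2 ratio, first group over second, of the 9 genes in the stage comparisons of Tet1-WT cells and the comparisons of males with females, with bars for the SE, filled points for an adjusted p under 0.05 and triangles for least ratios where 1 group had 0 counts. The called factors lie below 0 in E14.5 against E12.5, and Nr5a1, Gata4 and Cyp11a1 lie above 0 in E14.5 Tet1-KO males against females.

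Of 20 other regulators of the gonadal ridge, all tested, 4 were called at E10.5, where 8.81% of all genes were, and 2 in each sex at E12.5, where 1.29% of all genes were called in females and 1.06% in males. At E10.5 Nr5a2 rose in Tet1-KO, with 9.53 and 12.6 CPM in cells labelled Tet1-KO, against 4.97 and 1.78 CPM in Tet1-WT (adjusted p 0.0305). Of the 20, 3 fell at E10.5, among them Amhr2, the receptor of anti-Müllerian hormone, with 0.343 and 0 CPM in cells labelled Tet1-KO, against 6.61 and 2.92 CPM in Tet1-WT (adjusted p 0.0213). At E12.5, 2 of 20 fell and none rose in Tet1-KO cells of each sex. Gata6, which acts beside GATA4, fell in females, with 0.621 and 0.775 CPM in Tet1-KO cells, against 19.0 and 24.9 CPM in Tet1-WT cells (log2 ratio -4.97, adjusted p 0.00745). Podxl, a target of WT1, fell in males, with 0.421 and 0.200 CPM in Tet1-KO cells, against 12.3 and 4.39 CPM in Tet1-WT cells (log2 ratio -4.74, adjusted p 0.00904). In E14.5 females 3 rose and 1 fell in Tet1-KO, where 6.65% of all genes were called. In E14.5 males edgeR called none, with 1 at an unadjusted p under 0.05, beside 1815 of 17567 genes. The median log2 ratio of the 20 was -1.08 at E10.5, -1.04 for females and -1.20 for males at E12.5, and 0.07 for females and 0.16 for males at E14.5.

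With stage, 10 of the 20 regulators fell and none rose in E14.5 against E12.5 wild-type females, and 6 fell and none rose in males. Of all genes, 14% were called lower in females and 7.75% in males. Nr5a2 had 1.36 and 1.91 CPM in E14.5 female cells, against 13.2 and 14.9 CPM in E12.5 female cells (adjusted p 0.000214). Tcf21, a mesenchymal factor that is also in the mesenchyme list, had 0 and 0.799 CPM in E14.5 male cells, against 71.5 and 34.0 CPM in E12.5 male cells (adjusted p 0.000709). In MF1 cells 3 of 20 were lower than in E10.5 Tet1-WT cells, among them Osr1 and Tcf21, where 0.516% of all genes were called lower. In E14.5 Tet1-KO cells 3 of 20 were higher and 1 lower in males than in females, where 11.6% of all genes were called higher, and in E14.5 Tet1-WT cells 5 of 20 were higher in males, where 14% of all genes were. Lhx1 was among those higher in both, with 70.1 and 82.1 CPM in Tet1-KO males, against 3.82 and 1.80 CPM in Tet1-KO females (adjusted p 0.000767), and 79.8 and 54.5 CPM in Tet1-WT males, against 2.47 and 0.742 CPM in Tet1-WT females (adjusted p 0.000221).

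Other genes of steroid synthesis and cholesterol supply were listed as well, and 26 of 30 were tested. At E12.5 edgeR called none of them between genotypes in either sex, with 5 at an unadjusted p under 0.05 in females and 6 in males. Of 17567 genes, 2270 in females and 2562 in males had such a p. The median log2 ratio of the 26 was 0.01 in females and -0.10 in males. At E10.5, where 8.81% of all genes were called, Tspo, an outer mitochondrial membrane protein, rose in Tet1-KO (log2 ratio 1.05, adjusted p 0.0316), and Mc2r and Nr4a1 fell. Mc2r, the adrenocorticotropin receptor, had 0 counts in both libraries labelled Tet1-KO, against 15.2 and 15.0 CPM in E10.5 Tet1-WT (adjusted p 0.0184). In E14.5 females Soat1, which esterifies cholesterol, rose in Tet1-KO, with 129 and 164 CPM in Tet1-KO cells, against 43.3 and 60.2 CPM in Tet1-WT cells (adjusted p 0.00556). Of all genes, 6.65% were called there. In E14.5 males edgeR called none, with 4 at an unadjusted p under 0.05, beside 1815 of 17567 genes. In E14.5 against E12.5 wild-type females 9 fell and 1 rose, and in males 2 fell and none rose. Of all genes, 25.3% were called in females (14% lower) and 12.7% in males (7.75% lower).

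Of this list at E14.5, 6 genes were higher and 1 lower in Tet1-KO males than in Tet1-KO females, and 9 were higher and 2 lower in Tet1-WT males than in Tet1-WT females. Of all genes, 19% were called in the Tet1-KO comparison and 28.1% in the Tet1-WT comparison. Cyb5a, a cofactor of CYP17A1, had 79.0 and 92.8 CPM in Tet1-KO males, against 14.4 and 21.1 CPM in Tet1-KO females (log2 ratio 2.27, adjusted p 6.0e-05). It had 90.3 and 118 CPM in Tet1-WT males, against 7.65 and 11.8 CPM in Tet1-WT females (log2 ratio 3.44, adjusted p 1.1e-06). Npc2, a lysosomal cholesterol carrier, was higher in Tet1-KO males than in Tet1-KO females by a log2 ratio of 0.70 (adjusted p 0.0152), and Soat1 was higher in Tet1-WT males than in Tet1-WT females by 1.57 (adjusted p 0.000474). In the MF1 comparison edgeR called none of 23 tested, with 3 at an unadjusted p under 0.05, beside 3340 of 15500 genes.

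Likeness of pattern was described by Pearson's r of log2(CPM + 1) over the 20 libraries of the Tet1 cross, among 12372 genes, without a test, since the libraries share group, depth and sort. Among the factors, Wt1, Lhx9 and Emx2 were alike, with r of 0.87 between Wt1 and Lhx9, 0.86 between Lhx9 and Emx2 and 0.85 between Wt1 and Emx2, and Nr5a1 and Gata4 had r of 0.84. Cyp11a1 and Cyp17a1 also had r of 0.84, and each had r between -0.28 and 0.19 with Gata4, Wt1, Lhx9 and Emx2, while with Nr5a1 r was 0.40 for Cyp11a1 and 0.45 for Cyp17a1. Scarb1 ran opposite to the factors, with r between -0.66 and -0.58. The gene most like each was Mgst1 for Nr5a1 (r 0.90), Lbh for Gata4 (r 0.92), Tcf7l2 for Wt1 (r 0.96), Col11a1 for Lhx9 (r 0.96) and Mir99ahg for Emx2 (r 0.96). For the steroidogenic genes it was Creb3l4 for Star (r 0.79), Fbxo41 for Cyp11a1 (r 0.93), Defb19 for Cyp17a1 (r 0.92) and Emb for Scarb1 (r 0.92).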

How the data were processed

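The authors deposited raw read counts per Ensembl gene, 1 table of 20 libraries of the Tet1 cross and 1 of the 2 MF1 libraries. Per the submitters' processing notes Trimmomatic trimmed the reads, TopHat2 2.0.2 with Bowtie 0.12.8 aligned them to mm9, and HTSeq 0.5.3p9 did the counting. The strand setting is not given in the sources used here. Per the labels' protocols, cDNA and libraries were each amplified for 15 cycles. In 4 Tet1-KO groups (E12.5 and E14.5) both columns carry the same header, so those libraries have a group but no replicate number and are called a and b.

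The tools were edgeR 4.0.16 as the main test, DESeq2 1.42.0 as an alternative and limma 3.58.1, all under R 4.3.3. Genes were kept with filterByExpr (minimum count 10, minimum total 15), scaled by TMM and fitted with the robust quasi-likelihood method, 1 coefficient per group over all 20 libraries (17567 genes, common biological coefficient of variation 0.46, 10 residual degrees of freedom). The MF1 comparison was a separate fit of 4 libraries (15500 genes, coefficient 0.78, 2 degrees of freedom). Calls need an adjusted p under 0.05 (Benjamini-Hochberg, over all genes tested), and every adjusted p is edgeR's unless DESeq2 is named. Fits were tested on simulated counts. DESeq2 was read out for the members and not for the other lists.

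The members and lists were chosen with earlier results of these data known. All 9 members are named. From each other list up to 3 called genes with the smallest adjusted p were taken, or, with no call, the 2 with the highest mean CPM. Promoters were planned for Star, Cyp11a1 and Scarb1, and that of Lhx9 was added after seeing which genes the promoter table held. Exon lengths come from a GENCODE annotation of GRCm38, a later build than mm9, and no positions of the counted genes are given. Hmgcs1 found no match, and some genes of the other lists are counted there but not reported by name here.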

Additional observations from a re-analysis of the deposited data

Results flagged for a closer look

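Log2 ratios of Tet1-KO to Tet1-WT had opposite signs between stages, with libraries of the genotypes apart in each, for 3 genes. In E14.5 males the libraries lay higher in Tet1-KO without overlap for 24.9% of all genes. The differences between stages were not tested. For Gata4 the ratio was -2.78 at E10.5, -4.54 in E12.5 females and -1.81 in E12.5 males, and near 0 in E14.5 males, at 0.21 (SE 1.27). For Wt1 it was -4.21 in E12.5 females and -2.60 in E12.5 males, and near 0 in E14.5 males, at 0.060 (SE 0.96). For Cyp17a1 it was -1.21 (SE 1.83) in E12.5 males and 1.45 (SE 1.77) in E14.5 males. None of these ratios passed edgeR's test.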

How the results depend on the processing

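The limits are the 2 libraries per group, levels of the factors near the counting floor at E14.5, and a filter on low counts. Without that filter more genes were tested, and more were called in each comparison. No called member changed direction under the alternatives tried; directions of uncalled members were not followed there. Of the 13 calls among the 9 genes, all held with DESeq2 and with RLE size factors, and with RLE the median log2 ratio of all genes lay between -0.06 and 0.09. Counts of members called that changed by over 1.5 times follow, with all genes called and tested in the same fit in brackets. For Tet1-KO against Tet1-WT at E10.5 (1 call), there were 2 with no filter (2578 of 26023). With only the compared groups fitted there were 0 (0 of 14166). In E12.5 females (0 calls) there were 2 with DESeq2 (785 of 17567) and 3 with no filter (943 of 26023). With only the compared groups there were 2 (494 of 14386). In E12.5 males (0) there were 2 with no filter (901 of 26023) and 2 with only the compared groups (1312 of 14199). In E14.5 females (0) there was 1 with DESeq2 (2154 of 17567) and 1 with no filter (1857 of 26023). For E12.5 against E10.5 there were in females (1) 2 with no filter (3058 of 26023) and 3 with only the compared groups (1507 of 14860). In males (0) there were 2 with DESeq2 (2563 of 17567) and 1 with no filter (2309 of 26023). With only the compared groups there was 1 in males (1928 of 14662). For males against females at E12.5 in Tet1-WT (0) there was 1 with DESeq2 (743 of 17567) and 1 with no filter (583 of 26023). At E12.5 in Tet1-KO (0) there was 1 with no filter (439 of 26023) and 1 with only the compared groups (607 of 13534). At E14.5 in Tet1-WT (0) there were 2 with DESeq2 (5907 of 17567) and 5 with no filter (5452 of 26023). With only the compared groups there were 2 (5415 of 14719). For MF1 (1) there were 4 with DESeq2 (2453 of 15500) and 4 with no filter (1370 of 23209). A replicate block gave 3 (393 of 15500) and all 22 libraries gave 5 (4318 of 18008). Leaving out 1 library at a time gave 0 to 4 calls for Tet1-KO at E10.5, 0 to 1 in E12.5 females, 0 in E12.5 males and E14.5 cells, 1 and 0 for E12.5 against E10.5 in females and males, 2 for E14.5 against E12.5 in females and 0 to 1 in males, 0 to 2 for E14.5 Tet1-KO males against females, 0 for the other sex comparisons and differences of effects, and 1 to 5 for MF1. Smaller changes in E14.5 against E12.5 females (4 calls) were 5 with DESeq2 (5423 of 17567) and 5 with no filter (4994 of 26023). In E14.5 Tet1-KO males against females (3 calls) there were 4 with no filter (4023 of 26023). The cause of these changes was not tested. Replicate numbers are shared by 14 of 22 libraries, and replicates of the same number did not deviate together: correlations of replicate differences between 6 numbered groups lay between -0.03 and 0.05. A replicate block lost 2 calls of 10, that of Gata4 in E14.5 against E12.5 females (adjusted p 0.0559) and that of Lhx9 in E14.5 against E12.5 males (adjusted p 0.0517), and left the counts of calls at 1 for Tet1-KO at E10.5, 3 for females and 2 for males in E14.5 against E12.5.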
